A study of Homo sapiens with 40 samples.

Results

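The effect of CASP8AP2 knockdown was measured in hTERT-RPE1 cells 3 days after transfection. hTERT-RPE1 (RPE1 below) is a non-tumor line from the human retinal pigment epithelium that telomerase keeps dividing. Both samples labelled as RPE1, day 3 and CASP8AP2 siRNA were compared with both samples labelled as RPE1, day 3 and control siRNA, which makes 4 of the 40 arrays of the series. CASP8AP2 was targeted with a set of siRNAs used together, the control was the AllStars Negative Control siRNA, and either was given at 15 nM by reverse transfection. The labels call the replicates biological, while the methods state that the duplicates of a siRNA were transfected at the same time, so p-values here measure only the spread between such arrays, which may be technical. All 22069 genes of the array were tested, and 1924 of them (8.72%) could be named. The spread of a gene was shared over the 16 arrays of day 3, which also hold NPAT siRNA, HINFP siRNA and the osteosarcoma line U2OS. The study asked how normal and tumor cells respond to the loss of regulators of histone genes.

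CASP8AP2, also known as FLASH, sits in histone locus bodies, the nuclear sites where replication-dependent histone genes are transcribed. There it takes part in cutting the 3' end of histone pre-mRNA, which ends in a stem-loop and not in a poly(A) tail. NPAT is a coactivator of the same genes that is phosphorylated by cyclin E-CDK2, whereas HINFP binds the promoters of histone H4 genes. New histones are needed to pack replicated DNA, so that histone supply and S phase are coupled.

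Values are log2 levels, in which 1 unit is a 2-fold difference, and a difference is always CASP8AP2 siRNA minus control siRNA. Arrays report all genes relative to each other, and in bulk samples fewer cells of a type and less RNA per cell cannot be told apart. Replicate arrays correlated with r = 0.995 (control) and r = 0.997 (CASP8AP2) across genes, and the typical (median) standard error of a difference was 0.11. The replicates lay 1 unit or more apart for 95 genes in the control and for 25 genes in the CASP8AP2 group. Markers that define the retinal pigment epithelium were near the bottom of the scale, since RLBP1, BEST1 and TRPM1 read between 3.73 and 4.20 on the 4 arrays. The cadherin CDH2 (10.69 to 11.01) and fibronectin FN1 (12.54 to 12.76) were abundant, and the leukocyte markers CD3E and CD14 read between 3.23 and 3.77. None of the 12 marker genes with a symbol, out of 42 listed for 5 cell types, was called with CASP8AP2 siRNA, and 3 had an unadjusted p under 0.05. Tests were made with limma over all genes, calls needed a Benjamini-Hochberg adjusted p below 0.05, and rose or fell is written of called genes.

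Changes were more often upward than downward, and the large ones were nearly all upward. Of the 22069 genes, 6.15% were called, 3.62% higher and 2.54% lower, against 4364 genes at an unadjusted p under 0.05. Among genes with a symbol, 184 of 1924 (9.56%) were called, 124 higher (6.44%) and 60 lower (3.12%). The gene lists below were chosen with earlier results of these data known, so a list's share beside the 9.56% is a description. A difference of at least 1 was found in 172 of the called rises (0.779% of all genes) and in 19 of the called falls (0.0861%), and rises of at least 2 numbered 31 whereas no called fall reached that size. The typical called difference was 0.55, the smallest was 0.27, and the median difference of all genes was -0.03.

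The direction of the changes went with the level of a gene in control cells. Among the 10438 genes with a control level under 5, 224 rose and 50 fell, and 71 rises but 0 falls were of at least 1. Between 5 and 8 (6452 genes) 389 rose and 261 fell, and at 8 or more (5179 genes) 185 rose and 249 fell. A gene near the bottom of the scale has little room to fall, and the part of this limit in the asymmetry was not tested. The largest rise was that of ENSG00000130513, which had no symbol and read 4.39 and 4.56 on the control arrays and 10.96 and 10.95 on the CASP8AP2 arrays, a difference of 6.48 (SE 0.20, adjusted p = 2.28e-09). ENSG00000103888, also without a symbol, fell the most, from 8.75 and 9.09 to 6.82 and 7.60, a difference of -1.71 (SE 0.23, adjusted p = 0.000522).

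**Figure D1:**
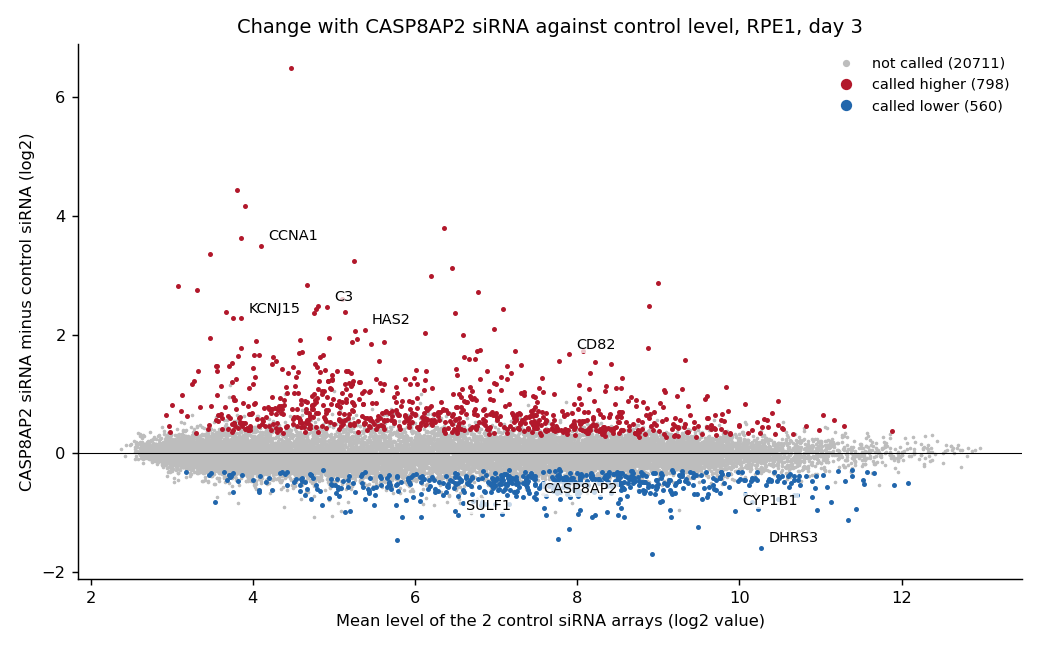
Each point is a gene, with the mean log2 level of the 2 RPE1 control arrays on the horizontal axis and the difference between CASP8AP2 siRNA and control siRNA (log2) on the vertical axis. The 798 genes called higher (red) reach 6.48, while the 560 called lower (blue) end at -1.71 and are sparse at control levels under 5.

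The targeted transcript was reduced in both CASP8AP2 arrays. CASP8AP2 read 7.51 and 7.47 with control siRNA and 6.67 and 6.78 with CASP8AP2 siRNA, a fall of 0.77 on the log2 scale (SE 0.11, adjusted p = 0.000821) that leaves 58.7% of the control level. The other histone gene regulators that the study targeted, NPAT and HINFP, were not called. NPAT read 8.44 and 8.28 against 8.40 and 8.39 (difference 0.04, SE 0.11, adjusted p = 0.901), and HINFP read 7.15 and 7.33 against 7.16 and 7.23 (difference -0.04, SE 0.15, adjusted p = 0.916). In both cases the arrays of the groups overlapped.

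Within the cell cycle genes, a germline cyclin rose strongly and cyclin E1 and E2F2 fell moderately, whereas replication and mitosis genes gave few calls or none. CCNA1, cyclin A1, is found mainly in germ cells and partners with CDK2. It read 4.24 and 3.97 on the control arrays and 7.64 and 7.55 on the CASP8AP2 arrays, a rise of 3.49 (SE 0.19, adjusted p = 1.72e-07) or 11.3-fold. CCNE1, cyclin E1, drives entry into S phase and went from 7.13 and 6.81 to 6.38 and 6.53 (difference -0.52, SE 0.12, adjusted p = 0.0277). E2F2, a transcription factor of G1/S genes, fell from 5.86 and 5.71 to 5.15 and 5.16 (difference -0.63, SE 0.12, adjusted p = 0.00838). MYBL2, which activates G2/M genes, rose slightly, from 9.24 on both control arrays to 9.54 and 9.53 (difference 0.30, SE 0.08, adjusted p = 0.0398). These were the called genes among 10 cyclins and G1/S regulators with a symbol (40.0%, against 9.56% of all genes with a symbol). The median difference of the list was 0.04. CCNA1 remained called in each of the 4 fits without 1 array, while CCNE1 and E2F2 lost the call in 3 of the 4 (adjusted p up to 0.166 and 0.061) and MYBL2 in all 4 (up to 0.165) and with a replicate block (0.0586).

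Of 6 replication licensing genes, 12 genes of DNA synthesis and nucleotide supply, 12 checkpoint and homologous repair genes and 6 mitosis and spindle genes with a symbol, 0 were called by limma and 4 had an unadjusted p under 0.05, with list medians of -0.13, 0.03, 0.10 and -0.01. A further 23 mitosis and cohesin genes also gave 0 calls and 3 with an unadjusted p under 0.05, with differences between -0.27 and 0.25. The same 23 genes held 8 falls in RPE1 cells on day 2 and 10 falls in U2OS cells on day 3, on other arrays, where 2.75% and 13.6% of all genes with a symbol fell. These differences between days and lines were not tested for the list. Of 45 further replication and repair genes 3 were called (6.67%, against 9.56% of all genes with a symbol). LIG3, a DNA ligase, differed by -0.30 (adjusted p = 0.0446), and TOP1, topoisomerase I, by 0.32 (adjusted p = 0.0328). LIG3 and TOP1 lost the call in all 4 fits without 1 array (adjusted p up to 0.234), and the list gave 0 or 1 calls there.

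Replication-dependent histone genes had no symbol and were not described as a group here. Among 52 genes for chromatin modifiers and remodellers, 1 rose and 4 fell (median difference 0.04), all by less than 1. The share called, 9.62%, was near the 9.56% of all genes with a symbol. SMARCD3, a subunit of the SWI/SNF remodeller, fell from 7.53 on both control arrays to 6.84 and 7.04 (difference -0.59, adjusted p = 0.00727). EZH1, a histone H3 methyltransferase, MTA1 and CHD3, both of the NuRD complex, differed by -0.33, -0.33 and -0.30, and ING2, a reader of methylated histone H3, by 0.38. Without 1 array, SMARCD3 lost the call in 1 fit (adjusted p = 0.0759) and the other 4 in every fit (up to 0.213), and the list gave 0 to 2 calls.

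Of 30 genes for caspases, BCL2 family members and the death receptor pathway, 5 rose and 0 fell (16.7% called, against 9.56% of all genes with a symbol, of which 6.44% rose), and the median difference was 0.07 against -0.01 for all genes with a symbol. PMAIP1, the BH3-only protein NOXA, read 8.09 and 8.20 on the control arrays and 9.27 and 9.18 on the CASP8AP2 arrays (difference 1.08, SE 0.12, adjusted p = 8.7e-05). CASP8, the initiator caspase after which CASP8AP2 is named, rose from 5.59 and 5.76 to 6.28 and 6.41 (difference 0.67, SE 0.09, adjusted p = 0.000599). The arrays of the groups did not overlap for either gene, which held for all 1358 called genes. The death receptor TNFRSF21 differed by 0.67, the TNF receptor TNFRSF1B by 0.55 and the BH3-only gene BCL2L11 by 0.55 (adjusted p between 0.00639 and 0.0381). PMAIP1 and CASP8 were called in every fit without 1 array, whereas TNFRSF21, BCL2L11 and TNFRSF1B lost the call in 3, 3 and 1 of the 4 (adjusted p up to 0.244), and the whole list gave between 2 and 7 calls in these fits.

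Single genes of DNA damage tolerance and of inflammation and a growth factor gene were also called. POLH, a polymerase that copies past ultraviolet lesions, went from 9.18 and 9.16 to 9.61 and 9.54 (difference 0.41, SE 0.08, adjusted p = 0.00662), a call lost without CASP8AP2 replicate 1 (adjusted p = 0.0623). PGF, placental growth factor, went from 4.74 and 4.90 to 6.01 and 6.08 (difference 1.22, SE 0.12, adjusted p = 3.64e-05). Of 10 NF-kB cytokine and survival genes 20.0% were called, against 9.56% of all genes with a symbol. TNFAIP2 rose from 6.49 and 6.69 to 6.97 and 7.24 (difference 0.52, adjusted p = 0.033). PTGS2, the inducible cyclooxygenase, fell from 7.03 and 7.30 to 6.47 and 6.63 (difference -0.61, adjusted p = 0.00896). The call of TNFAIP2 was lost without control replicate 1 and without CASP8AP2 replicate 2 (adjusted p up to 0.27), and that of PTGS2 without control replicate 2 and without CASP8AP2 replicate 1 (up to 0.0818). NFKBIZ, a nuclear IkB protein that shapes NF-kB output, fell from 6.94 and 6.92 to 6.22 and 6.33 (difference -0.65, SE 0.11, adjusted p = 0.00343). NFKBIZ was not among the 10 listed genes. Among 44 interleukin, chemokine and interferon ligand genes with a symbol, 0 were called by limma and 7 had an unadjusted p under 0.05 (differences between -0.62 and 0.73). Members of these families without a symbol were not counted, so calls among them are not excluded.

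Several laminin and collagen genes were higher. Of 43 collagen, laminin and matrix enzyme genes 8 rose and 0 fell (18.6% called, against 9.56% of all genes with a symbol), although the median of the list was 0.03. LAMB3, the beta chain of laminin-332 of basement membranes, went from 6.54 and 6.94 to 8.32 and 8.34 (difference 1.59, SE 0.15, adjusted p = 3.09e-05). LAMC1 and LAMB1, chains of the widely expressed laminins, differed by 0.47 and 0.42. COL6A3, a chain of collagen VI, read 5.22 and 5.25 against 6.38 and 6.51 (difference 1.21, SE 0.11, adjusted p = 2.3e-05). ADAMTS14, a procollagen N-propeptidase, read 4.98 and 4.96 against 6.12 and 5.98 (difference 1.08, SE 0.11, adjusted p = 4.63e-05). The CASP8AP2 arrays lay above both control arrays in each of these genes, which held for every called rise. P4HA2, a collagen prolyl hydroxylase, differed by 0.61 and SRPX2, a secreted sushi repeat protein, by 0.66. LAMB3, COL6A3, ADAMTS14 and SRPX2 were called in all 4 fits without 1 array. LAMB1, LAMC1 and P4HA2 lost the call in 2 or 3 of them (adjusted p up to 0.191), and the list gave 4 to 8 calls.

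Hyaluronan and heparan sulfate genes moved in both directions. HAS2, the main hyaluronan synthase of mesenchymal cells, rose from 5.20 and 5.56 to 7.40 and 7.52 (difference 2.08, SE 0.17, adjusted p = 7.03e-06), which is 4.23-fold. The extracellular 6-O-sulfatases of heparan sulfate went opposite ways. SULF1 read 6.26 and 6.81 against 5.00 and 5.97 (difference -1.05, SE 0.24, adjusted p = 0.021), whereas SULF2 read 4.21 and 4.42 against 5.08 and 5.12 (difference 0.78, SE 0.15, adjusted p = 0.00795). The replicates of SULF1 differed by nearly as much as the groups, and its call was lost without control replicate 2 (difference -0.78, adjusted p = 0.145) and without CASP8AP2 replicate 1 (difference -0.57, adjusted p = 0.14). SULF2 lost the call without control replicate 1 and without CASP8AP2 replicate 2 (adjusted p up to 0.0638). CCN2, a matricellular protein induced by TGF-beta and YAP, fell from 11.35 and 11.43 to 11.04 and 10.96 (difference -0.39, SE 0.09, adjusted p = 0.0176), a call kept only without control replicate 1 of the 4 arrays.

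**Figure D2:**
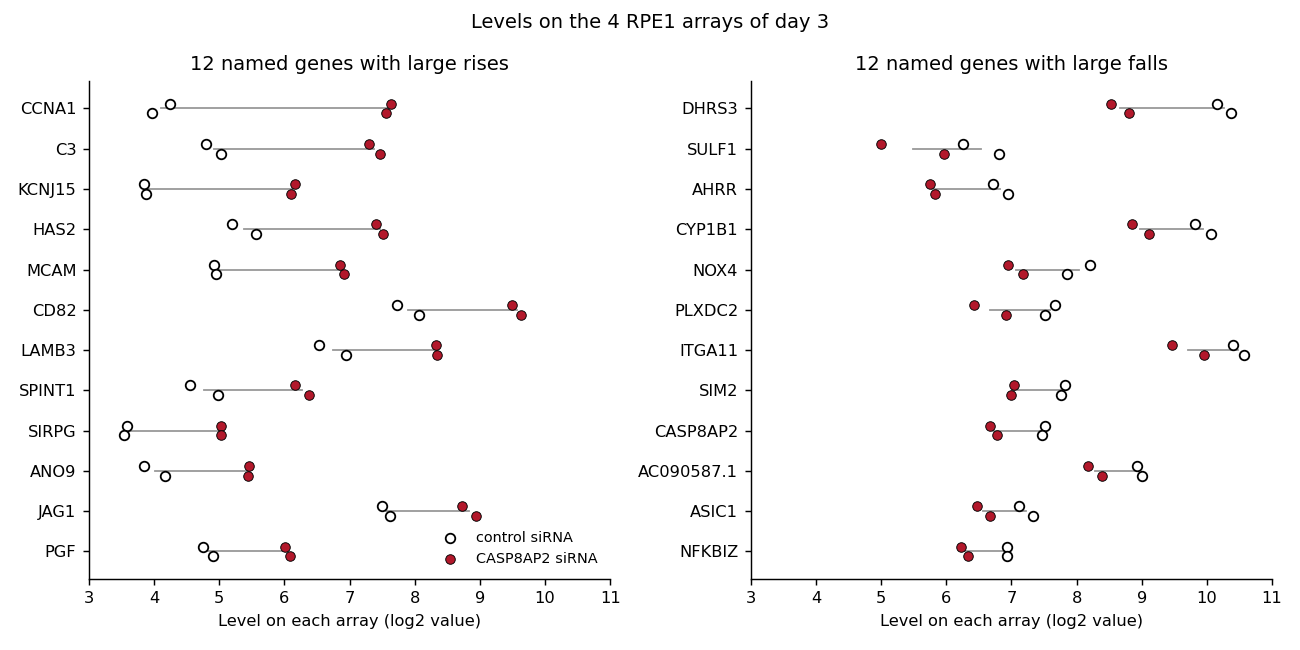
Log2 levels on the 2 control arrays (open) and the 2 CASP8AP2 arrays (red) of RPE1 day 3 for 12 named genes with large rises and 12 with large falls, with a grey line between the group means. Replicates lie close together for CCNA1 (4.24 and 3.97 against 7.64 and 7.55) and farther apart for SULF1 (6.26 and 6.81 against 5.00 and 5.97).

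Cell surface adhesion genes contributed some of the largest rises. Among 38 integrin and adhesion genes 5 rose and 2 fell (18.4% called, against 9.56% of all genes with a symbol, median difference -0.06). MCAM, an immunoglobulin-type adhesion molecule also called CD146, read 4.92 and 4.95 on the control arrays and 6.85 and 6.92 on the CASP8AP2 arrays (difference 1.95, SE 0.10, adjusted p = 1.02e-07). CD82, a tetraspanin that limits cell motility, read 7.72 and 8.07 against 9.50 and 9.63 (difference 1.67, SE 0.15, adjusted p = 1.71e-05). ITGA6, the laminin-binding integrin alpha6 chain, went from 9.01 and 9.45 to 10.19 and 10.20 (difference 0.97, SE 0.12, adjusted p = 0.000253). CD9, another tetraspanin, differed by 0.59 (adjusted p = 0.000856) and the placental cadherin CDH3 by 0.43 (adjusted p = 0.0165). The falls were ITGA11, the chain of a fibrillar collagen receptor, and TNS1, which links integrins to actin. ITGA11 went from 10.41 and 10.56 to 9.46 and 9.95 (difference -0.78, SE 0.16, adjusted p = 0.0113) and TNS1 from 9.52 and 9.32 to 8.86 and 8.90 (difference -0.54, SE 0.10, adjusted p = 0.00814). MCAM, CD82, ITGA6 and CD9 were called in all 4 fits without 1 array. CDH3 and ITGA11 lost the call in 2 of them and TNS1 in 3 (adjusted p up to 0.162).

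Single genes for secreted factors and for ligands had large rises. C3, the central complement component, rose from 4.80 and 5.03 to 7.29 and 7.47 (difference 2.47, SE 0.29, adjusted p = 0.000172), or 5.52-fold, whereas the other 3 complement genes with a symbol were not called. JAG1, a Notch ligand, rose from 7.50 and 7.62 to 8.72 and 8.94 (difference 1.26, SE 0.12, adjusted p = 3.08e-05). Of 25 growth factor genes 4 rose and 1 fell (20.0% called, against 9.56% of all genes with a symbol). Beside PGF, the epidermal growth factor receptor ligands TGFA and HBEGF differed by 0.86 and 0.41 and the neuregulin NRG2 by 0.44, while CCN2 was the fall. FST, follistatin, which binds activin, rose from 7.94 and 8.10 to 8.94 and 8.95 (difference 0.92, SE 0.10, adjusted p = 0.000111), and SMAD1, a transducer of BMP signals, differed by -0.50 (adjusted p = 0.0304). C3, JAG1, PGF and FST were called in every fit without 1 array. TGFA, NRG2 and SMAD1 lost the call in all 4 and HBEGF in 3 (adjusted p up to 0.22), so that the growth factor list gave 2 or 3 calls there.

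The insulin-like growth factor axis held 4 called genes among 8 with a symbol (50.0%, against 9.56% of all genes with a symbol). It was listed only from genes with a symbol and with earlier results of these data known, so its share is a description. The median difference of this list was 0.38. The binding proteins IGFBP1 and IGFBP2, which hold insulin-like growth factors outside the cell, rose the most. IGFBP1 read 5.31 on both control arrays and 6.55 and 6.48 on the CASP8AP2 arrays (difference 1.20, SE 0.13, adjusted p = 6.8e-05). IGFBP2 read 6.21 and 6.04 against 7.46 and 7.26 (difference 1.23, SE 0.16, adjusted p = 0.000364). The receptor substrates went opposite ways, since IRS1 went from 7.32 and 7.25 to 7.93 and 8.00 (difference 0.68, adjusted p = 0.00109) and IRS2 from 7.52 and 7.45 to 7.07 and 7.04 (difference -0.43, adjusted p = 0.0418). IRS2 was not called in any of the 4 fits without 1 array (adjusted p up to 0.2) nor after cyclic loess normalization (0.0678), and the other members were called in all 4.

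Of 34 cytokine receptor and STAT genes 5 rose and 0 fell, with a median difference of 0.10. The share called was 14.7%, against 9.56% of all genes with a symbol. IL4R, the interleukin-4 receptor alpha chain, went from 7.49 and 7.63 to 8.19 and 8.33 (difference 0.70, SE 0.09, adjusted p = 0.000484). IL2RB and IL6R, receptor chains for interleukin-2 and interleukin-6, CSF1R, the receptor of CSF1, and TNFRSF19, of the TNF receptor family, differed by 0.76, 0.67, 0.47 and 0.46. Without 1 array IL4R was called in all 4 fits and the others lost the call in 2 or 3 (adjusted p up to 0.258). The difference of IL2RB was 0.48 without control replicate 1, and that of TNFRSF19 was 0.29 without CASP8AP2 replicate 2. Of 22 serpin and coagulation genes 4 rose and 0 fell (18.2% called, median -0.06). SERPINB1, an inhibitor of neutrophil proteases, went from 6.08 and 6.31 to 6.93 and 7.02 (difference 0.79, SE 0.11, adjusted p = 0.000553). SERPINB4, SERPINA1 and PROC, from low control levels between 3.33 and 4.81, differed by 0.77, 0.69 and 0.42, and lost the call in 4, 1 and 4 of the fits without 1 array (adjusted p up to 0.237).

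**Figure D3:**
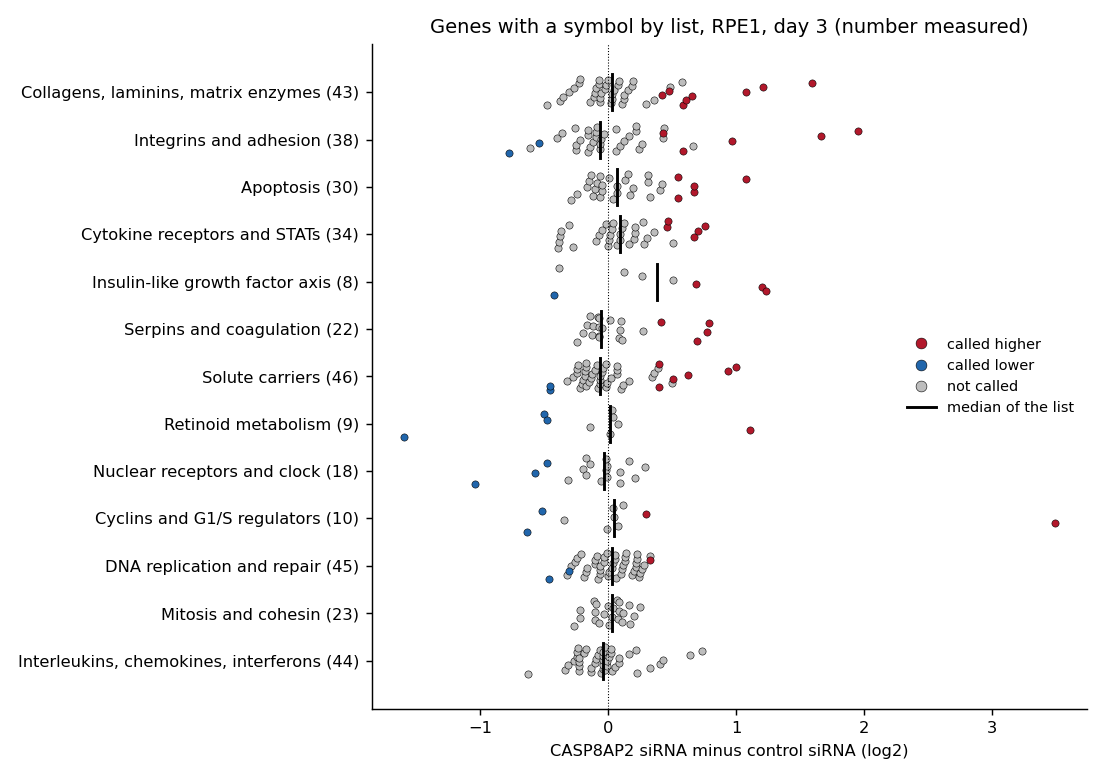
Difference between CASP8AP2 siRNA and control siRNA (log2, horizontal axis) for each gene with a symbol in 13 lists (rows, with the number of genes measured), coloured by call, and the median of each list as a black bar. The list medians stay between -0.06 and 0.38 and near 0 apart from the insulin-like growth factor axis, and single genes such as CCNA1 (3.49) and DHRS3 (-1.59) lie far from their lists.

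Membrane transport genes were called in both directions. KCNJ15, an inward rectifier potassium channel, had the third largest rise among genes with a symbol, from 3.84 and 3.88 to 6.16 and 6.10 (difference 2.27, SE 0.10, adjusted p = 2.52e-08). It was 1 of 3 called among 36 potassium channel genes (8.33%, near the 9.56% of all genes with a symbol). The calcium-activated channels KCNN4 and KCNN3 differed by 0.54 and 0.42. ANO9, of the anoctamin family of channels and scramblases, rose from 3.85 and 4.16 to 5.45 and 5.44 (difference 1.44, SE 0.13, adjusted p = 1.86e-05). Among 46 solute carriers 6 rose and 2 fell (17.4% called, median -0.06). SLC7A8, a transporter of neutral amino acids, went from 6.44 and 6.50 to 7.38 and 7.55 (difference 1.00, SE 0.10, adjusted p = 6.42e-05), and SLC12A8 went from 6.00 and 6.05 to 6.85 and 7.08 (difference 0.94, SE 0.12, adjusted p = 0.000265). SLC40A1, the iron exporter ferroportin, differed by 0.62, the sodium-proton exchanger SLC9A7 by 0.50, and the zinc transporter SLC39A6 by 0.40. SLC7A1, which takes up arginine and lysine, and SLC25A15, a mitochondrial ornithine carrier, differed by -0.45 and -0.46. KCNJ15, ANO9, SLC7A8 and SLC12A8 were called in all 4 fits without 1 array. The remaining ones lost the call in 2 to 4 of them (adjusted p up to 0.236), and the solute carrier list gave 3 to 5 calls.

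Retinoid genes held the largest named fall. Retinol is oxidised to retinal and then to retinoic acid, which acts through nuclear receptors, and DHRS3 runs the first step backwards by reducing retinal to retinol. DHRS3 read 10.16 and 10.37 on the control arrays and 8.54 and 8.81 on the CASP8AP2 arrays, a fall of 1.59 on the log2 scale (SE 0.13, adjusted p = 6.33e-06) that leaves 33.1% of the control level. DHRS9, which oxidises retinol, moved the other way, from 3.84 and 4.06 to 4.93 and 5.18 (difference 1.11, SE 0.13, adjusted p = 0.000167). ALDH1A3, which makes retinoic acid, went from 10.50 and 10.78 to 10.13 and 10.14 (difference -0.50, SE 0.14, adjusted p = 0.0468), and RARA, the retinoic acid receptor alpha, from 8.40 and 8.36 to 7.85 and 7.94 (difference -0.48, SE 0.08, adjusted p = 0.00406). These 4 were the calls among 9 retinoid genes with a symbol, out of 26 listed, and the list had a median of 0.01. The share called was 44.4%, against 9.56% of all genes with a symbol. In a limma fit of only the 4 arrays compared, RARA and ALDH1A3 were not called (adjusted p = 0.0878 and 0.132). DHRS3, DHRS9 and RARA kept the call without any 1 array, and ALDH1A3 lost it in 3 of 4 such fits (adjusted p up to 0.246) and under cyclic loess (0.0543) and quantile normalization (0.0588).

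RARA was also 1 of 3 falls among 18 nuclear receptor and clock genes, of which 0 rose. The share called was 16.7%, against 9.56% of all genes with a symbol. AHRR, a repressor of the aryl hydrocarbon receptor and itself a known target of that receptor, fell from 6.72 and 6.94 to 5.75 and 5.82 (difference -1.04, SE 0.13, adjusted p = 0.000218). CYP1B1, another known target of the aryl hydrocarbon receptor and a cytochrome P450 that oxidises steroids and retinoids, fell from 9.82 and 10.07 to 8.84 and 9.11 (difference -0.97, SE 0.16, adjusted p = 0.00281). For both genes the groups were apart by more than the replicates, and both were called in each fit without 1 array. NR3C2, the mineralocorticoid receptor, differed by -0.57 (adjusted p = 0.0465), and this call was lost in all 4 such fits (adjusted p up to 0.173), with a replicate block (0.0594) and after cyclic loess normalization (0.0736).

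The other large named falls came from genes of different functions. NOX4, an NADPH oxidase that makes hydrogen peroxide, went from 8.21 and 7.85 to 6.95 and 7.18 (difference -0.96, SE 0.22, adjusted p = 0.0188). PLXDC2, a transmembrane protein with a plexin domain, went from 7.67 and 7.52 to 6.42 and 6.92 (difference -0.92, SE 0.18, adjusted p = 0.00979). SIM2, a transcription factor of the bHLH-PAS family to which AHRR also belongs, went from 7.82 and 7.76 to 7.04 and 6.99 (difference -0.78, SE 0.10, adjusted p = 0.000338). Replicates were close in SIM2 and wider in the other 2. ASIC1, an acid-sensing ion channel, differed by -0.66 (adjusted p = 0.00305), and the transcript paired with the name AC090587.1 by -0.68 (adjusted p = 0.00995). Without 1 array SIM2 and ASIC1 remained called in all 4 fits, while NOX4 lost the call in 3, PLXDC2 in 2 and AC090587.1 in 2 (adjusted p up to 0.121).

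Metabolic genes moved both ways. Calls made up 12.5% of the genes of amino acid supply and tRNA charging, 16.7% of cholesterol synthesis genes and 4.55% of energy metabolism genes. Of all genes with a symbol 9.56% were called. ASNS, asparagine synthetase and a target of the stress factor ATF4, fell from 6.89 and 7.09 to 6.51 and 6.36 (difference -0.55, SE 0.11, adjusted p = 0.0078), and with SLC7A1 it was 1 of 2 falls among 16 genes of amino acid supply and tRNA charging. The call of ASNS was lost without control replicate 2 and without CASP8AP2 replicate 2 (adjusted p up to 0.0895). DHCR7, which makes cholesterol from its last precursor, fell from 8.81 and 8.78 to 8.28 and 8.35 (difference -0.48, SE 0.08, adjusted p = 0.00286), and was the call in a list of 6 cholesterol synthesis genes. EBP, a sterol isomerase of the same pathway that this list did not hold, went the other way (difference 0.38, adjusted p = 0.02), a call lost in all 4 fits without 1 array (up to 0.158). LIPG, endothelial lipase, rose from 4.76 and 4.90 to 6.08 and 6.32 (difference 1.37, SE 0.15, adjusted p = 0.000121). PYGB, a glycogen phosphorylase, was 1 call among 22 genes of energy metabolism (difference 0.71, adjusted p = 0.00352). DHCR7, LIPG and PYGB were called in all fits without 1 array.

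Further rises of at least 1 covered surface proteins and enzymes outside the lists. SPINT1, an inhibitor of matriptase and related surface proteases, went from 4.55 and 4.98 to 6.16 and 6.37 (difference 1.50, SE 0.13, adjusted p = 1.72e-05). SIRPG, a receptor of the SIRP family known from lymphocytes, went from 3.58 and 3.54 to 5.03 on both CASP8AP2 arrays (difference 1.47, SE 0.16, adjusted p = 8.51e-05). Levels of this size are near the bottom of the scale. ANPEP, an aminopeptidase of the cell surface, rose from 6.41 and 6.61 to 7.87 and 7.99 (difference 1.42, SE 0.15, adjusted p = 9.45e-05). ALOX5AP, which presents arachidonic acid to 5-lipoxygenase, rose from 6.26 and 5.75 to 7.42 and 7.39 (difference 1.40, SE 0.22, adjusted p = 0.00238). All 4 genes kept the call without any 1 array.

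The promoters of 4 of these genes are shown, CCNA1 and MCAM as rises and DHRS3 and AHRR as falls. The HINFP site is marked in them because HINFP is another histone gene regulator that the study targeted. The paper reports CASP8AP2 at histone genes together with NPAT. The windows hold 300 bases around a transcription start, most of them upstream of it, from RefSeq on GRCh38.p14, and the first of 3 starts is given for DHRS3 and the first of 2 for AHRR. Capitals mark the core of the HINFP site, CGGAC, on either strand (GTCCG on the printed one).
CCNA1, chr13:36431705-36432004, plus strand: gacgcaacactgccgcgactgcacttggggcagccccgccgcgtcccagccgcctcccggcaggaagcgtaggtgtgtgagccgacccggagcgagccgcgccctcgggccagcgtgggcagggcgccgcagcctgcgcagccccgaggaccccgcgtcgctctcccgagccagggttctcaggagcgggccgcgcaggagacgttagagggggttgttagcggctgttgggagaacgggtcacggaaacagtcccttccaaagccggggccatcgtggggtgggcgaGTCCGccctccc
MCAM, chr11:119317081-119317380, minus strand: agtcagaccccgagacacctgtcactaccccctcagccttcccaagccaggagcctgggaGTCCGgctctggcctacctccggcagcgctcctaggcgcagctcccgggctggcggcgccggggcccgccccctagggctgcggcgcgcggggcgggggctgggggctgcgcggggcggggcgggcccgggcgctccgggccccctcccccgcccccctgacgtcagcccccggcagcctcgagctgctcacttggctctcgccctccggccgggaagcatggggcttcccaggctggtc
DHRS3, chr1:12618161-12618460, minus strand: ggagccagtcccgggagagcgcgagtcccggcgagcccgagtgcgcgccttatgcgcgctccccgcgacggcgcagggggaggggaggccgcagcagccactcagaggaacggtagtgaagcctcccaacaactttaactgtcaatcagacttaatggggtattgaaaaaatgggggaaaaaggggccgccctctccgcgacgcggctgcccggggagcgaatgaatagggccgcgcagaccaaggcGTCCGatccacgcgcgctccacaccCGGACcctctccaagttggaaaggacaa
AHRR, chr5:321464-321763, plus strand: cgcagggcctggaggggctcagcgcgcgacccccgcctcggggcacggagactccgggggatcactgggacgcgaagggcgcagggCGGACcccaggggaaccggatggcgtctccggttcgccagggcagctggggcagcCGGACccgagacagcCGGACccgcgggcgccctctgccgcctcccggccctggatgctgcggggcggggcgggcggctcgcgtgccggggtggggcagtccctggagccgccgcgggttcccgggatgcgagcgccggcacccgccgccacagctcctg
The core occurred 1 time in CCNA1 and MCAM, 2 times in DHRS3 and 3 times in AHRR. It is present in 28.9% of all 35116 promoter windows of this length. The 4 windows were picked and hold 64.7% to 79.3% G and C, so nothing about genes that rose or fell follows from them. CCNA1, DHRS3 and AHRR hold 1 match each and MCAM none to GCGTG on either strand, the core of the element bound by the aryl hydrocarbon receptor, which 36.5% of all windows contain. A match is a run of letters and says nothing of binding. No comparison of promoters between genes that rose and fell was made, because windows were at hand for 77.2% of the genes with a symbol.

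Earlier arrays of RPE1 cells, from days 1 and 2 with 3 replicates per group, give the same comparison earlier, for genes chosen by their calls on day 3. They are separate cultures with their own controls and, judged from their array means, were normalized apart from day 3, so differences and calls are set side by side and levels are not. Of the 798 genes higher on day 3, 62 were called higher on day 1 (where 0.449% of all genes were) and 443 on day 2 (4.25%), and 1 was called lower on each of these days. Of the 560 genes lower on day 3, 22 were called lower on day 1 (0.344% of all genes) and 91 on day 2 (2.16%), and 2 and 7 were called higher. Among rises of at least 1 the counts were 39 of 172 on day 1 and 152 of 172 on day 2, and among falls of at least 1 they were 0 of 19 (3 with an unadjusted p under 0.05 and the same sign) and 6 of 19. When each array was centred on its median, day 2 turned from 937 higher and 476 lower to 703 higher and 974 lower.

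Named genes followed different courses. KCNJ15 (0.73, 1.34 and 2.27), PMAIP1 (0.44, 0.94 and 1.08) and TNFAIP2 (0.35, 0.84 and 0.52) were called on all 3 days, TNFAIP2 on day 3 not in 2 of the 4 fits without 1 array (adjusted p up to 0.27). CCNA1 differed by -0.13 on day 1 (3.90, 3.80 and 3.87 against 3.76, 3.84 and 3.59; adjusted p = 0.87), by 2.18 on day 2 and by 3.49 on day 3. C3 read 5.20, 5.40 and 5.36 against 5.42, 5.44 and 5.30 on day 1 (difference 0.07), and differed by 0.67 on day 2 and by 2.47 on day 3. CD82 (0.09, 0.89 and 1.67), LAMB3 (0.37, 1.08 and 1.59) and SPINT1 (0.00, 1.20 and 1.50) were likewise called from day 2 on. Of the large falls, DHRS3 differed by -0.27, -0.73 and -1.59 and was called on days 2 and 3, whereas CYP1B1 (0.06, -0.24 and -0.97), AHRR (-0.31, -0.41 and -1.04) and NOX4 (-0.10, -0.25 and -0.96) were called on day 3 alone of these days. AHRR narrowly missed the call on day 2 (limma, adjusted p = 0.0534). CASP8AP2 itself differed by -0.85, -0.76 and -0.77 on the 3 days. Differences between days were not tested.

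**Figure D4:**
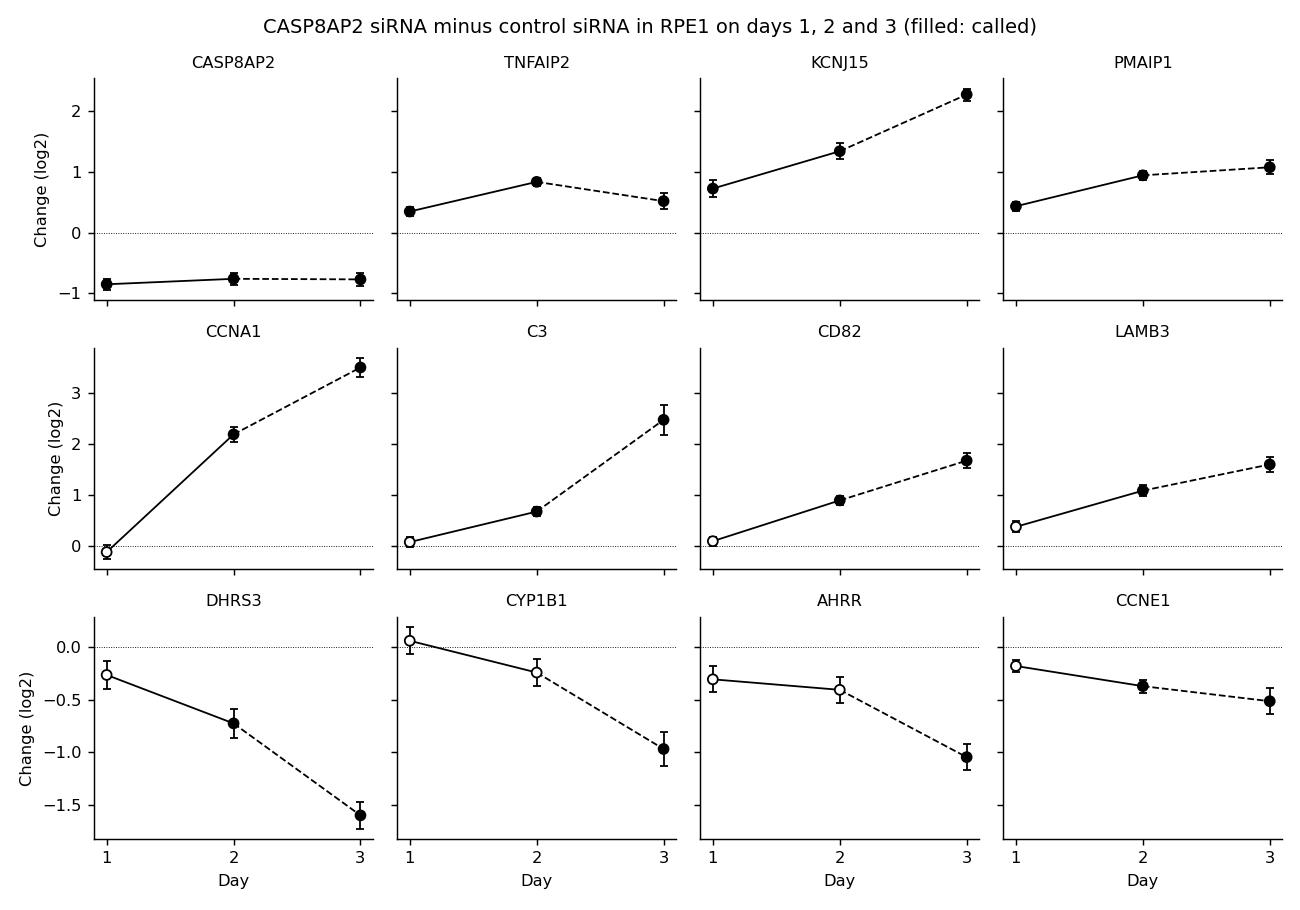
Difference between CASP8AP2 siRNA and control siRNA in RPE1 cells (log2, with SE bars) on days 1 and 2 (3 arrays per group) and day 3 (2 arrays per group), with a shared scale in each row. Filled points were called, and the dashed part of a line joins sets of arrays that were normalized apart. KCNJ15 is at 0.73 on day 1 already, while CCNA1 is at -0.13 and in the lower row each gene lies farthest from 0 on day 3 (-1.59 for DHRS3).

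The same siRNA was read in U2OS cells on day 3, on 4 other arrays of the same fit. The difference between the effects (U2OS minus RPE1, an interaction term) was called for 9.55% of all genes, 4.05% with the higher value in U2OS and 5.5% with the lower. In U2OS cells 7.91% of all genes rose and 11.0% fell. The genes followed here were chosen by their calls in RPE1 cells, and the interaction term uses the same RPE1 arrays, so the counts among them are a description. Of the 798 genes higher in RPE1, 257 were also called higher in U2OS and 38 lower, and for 319 the rise was larger in RPE1 by the interaction test. Of the 560 lower genes, 153 were also lower in U2OS and 39 higher, and for 171 the fall was larger in RPE1.

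MCAM stood at a higher level in U2OS controls (9.43 and 9.48) and read 9.67 and 9.83 with CASP8AP2 siRNA (difference 0.30; lines differed by -1.65, SE 0.14, adjusted p = 2.89e-05). KCNJ15 started at low levels in both lines, whereas C3 in U2OS controls lay above the medians of those arrays (5.32 and 5.33). C3 read 5.66 and 5.99 against 5.41 and 6.15 in U2OS (difference -0.05; lines differed by -2.51, SE 0.41, adjusted p = 0.00301), and KCNJ15 read 3.65 and 3.62 against 4.03 and 4.21 (difference 0.48; lines differed by -1.79, SE 0.14, adjusted p = 1.81e-05). Among the falls, DHRS3 went the other way in U2OS, from 5.03 and 5.39 to 5.90 and 5.97 (difference 0.72, adjusted p = 0.0018; lines differed by 2.32, SE 0.18, adjusted p = 1.6e-05). ASNS did so too, from 8.63 and 8.51 to 9.20 and 8.97 (difference 0.52, adjusted p = 0.00484; lines differed by 1.07, SE 0.15, adjusted p = 0.00129). AHRR and ITGA11 were low in U2OS controls (4.99 and 5.04, and 4.31 and 4.14), differed there by 0.30 each without a call, and differed between the lines by 1.35 (SE 0.18) and 1.08 (SE 0.22). The difference of ITGA11 between the lines was not called without U2OS CASP8AP2 replicate 1 (0.88, adjusted p = 0.0502) or in a fit restricted to the 8 arrays of this comparison (1.08, adjusted p = 0.0535).

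Other rises were found in both lines. CCNA1 read 4.28 and 4.00 on the U2OS control arrays and 6.94 and 7.39 on the U2OS CASP8AP2 arrays (difference 3.02, SE 0.19, adjusted p = 5.83e-07), and the lines differed by -0.47 (SE 0.27, adjusted p = 0.292). JAG1 (1.34 in U2OS), PGF (1.37) and COL6A3 (1.09) rose there as well, with differences between the lines of 0.07, 0.14 and -0.12 (SE between 0.16 and 0.17) that were not called. CASP8AP2 itself fell by 1.18 on the log2 scale in U2OS, and the difference of -0.41 from RPE1 was not called either (SE 0.15, adjusted p = 0.113).

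**Figure D5:**
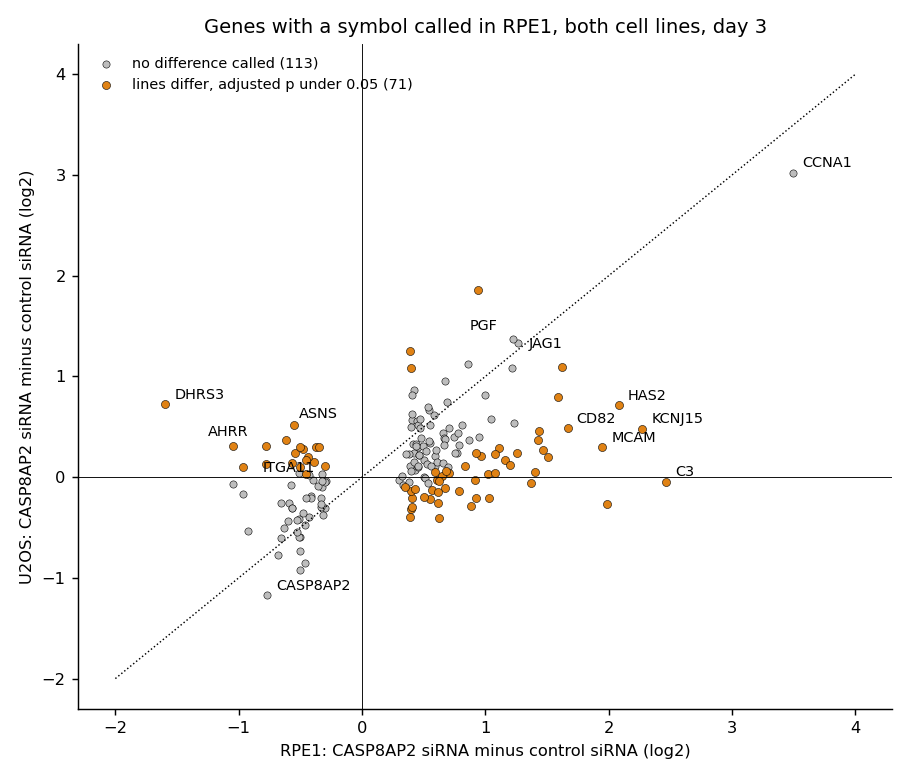
Difference between CASP8AP2 siRNA and control siRNA (log2) on day 3 in RPE1 cells (horizontal) and U2OS cells (vertical) for the 184 genes with a symbol called in RPE1, with the line of equal effects dotted. The lines differed for 71 of them (orange), among these C3 (2.47 and -0.05) and DHRS3 (-1.59 and 0.72), while CCNA1 (3.49 and 3.02) lies near the dotted line.

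The same genes were read in RPE1 cells after NPAT siRNA and HINFP siRNA on day 3. These comparisons use the same control arrays as CASP8AP2 siRNA, so values are given side by side and without a comparison. CCNA1 differed by 3.49 with CASP8AP2 siRNA, 0.37 with NPAT siRNA and -0.18 with HINFP siRNA, and C3 by 2.47, -0.02 and 0.38, with no call for the last 2 siRNAs in either gene. MCAM differed by 1.95, 2.23 and 0.92, called in all 3 cases. The falls of DHRS3 (-1.59, -0.92 and -0.65), AHRR (-1.04, -0.94 and -0.63), CYP1B1 (-0.97, -1.79 and -1.05), ALDH1A3 (-0.50, -0.71 and -0.66) and PTGS2 (-0.61, -0.75 and -0.89) were called with each siRNA. KCNJ15 differed by 2.27, 0.37 and 0.02, and HAS2 by 2.08, 0.63 and 0.12, with no call for HINFP siRNA.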

How the data were processed

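Each sample was hybridised to 1 Affymetrix Human WT 1.1 array. The authors deposited log2 levels for 22069 Ensembl genes, made in Bioconductor (affy) with a custom probe definition, with RMA named in the processing notes. Versions and the genome build are not given in the sources used here. RMA makes arrays comparable by forcing their distributions to match, so a shift of most genes would be hidden. Array means (5.85 to 5.88 on day 3, 6.00 to 6.05 on days 1 and 2) fall in 2 sets, which were fitted apart. Depth does not apply to arrays, and 2 arrays per group limit the precision.

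All arrays of day 3 (16 arrays, 8 groups, 8 residual degrees of freedom) entered 1 limma fit (lmFit and eBayes, limma 3.58.1, R 4.3.3) with no covariate, and those of days 1 and 2 another (24 arrays, 16 residual degrees of freedom). Tests were two-sided, with Benjamini-Hochberg adjustment over all genes at 0.05. The difference between lines was an interaction term. The scripts were tested on simulated data. Symbols came only from the gene pairs in the authors' screening tables (1924 genes), 114 of them updated through RefSeq, and other genes were not named. Some items are not reported here.

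Named genes were the regulators and genes of prior interest, the 12 largest called rises and falls whose arrays did not overlap, up to 4 called genes per list and the largest differences between lines. Other called members of added lists, made only of genes with a symbol, and ALOX5AP and ANPEP were chosen after their values were seen. The members, lists and tests were chosen with earlier results of these data known. Alternatives were other sets of arrays, normalizations, filters and thresholds, a replicate block and the omission of each array. Promoter windows came from RefSeq (GRCh38.p14) and summaries were made in Python 3.11.15 with pandas 2.3.3.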

Additional observations from a re-analysis of the deposited data

Results flagged for a closer look

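For 23 of the 42 named genes reported here the effect of CASP8AP2 siRNA on day 3 differed between U2OS and RPE1 cells by the interaction term (limma, adjusted p from 1.6e-05 to 0.0356). Values are the log2 difference in U2OS minus that in RPE1, with 2 arrays per group. The interaction was called for 9.55% of all genes. The named genes were chosen by their calls in RPE1 cells or by their difference between the lines, so their count and signs are a description. It was below 0 for 13 genes that rose in RPE1 cells, namely C3 (-2.51), KCNJ15 (-1.79), MCAM (-1.65), HAS2 (-1.37), SPINT1 (-1.31), SIRPG (-1.20), CD82 (-1.18), ANO9 (-0.98), SULF2 (-0.92), PMAIP1 (-0.84), DHRS9 (-0.82), LAMB3 (-0.80) and POLH (-0.71). It was above 0 for 10 genes that fell in RPE1 cells, namely CCN2 (0.53), RARA (0.76), ALDH1A3 (0.80), SIM2 (0.91), PTGS2 (0.99), CYP1B1 (1.07), ASNS (1.07), ITGA11 (1.08), AHRR (1.35) and DHRS3 (2.32). In U2OS cells the groups moved the opposite way for DHRS3, ASNS, PTGS2, RARA and POLH, each called there with differences of 0.72, 0.52, 0.37, 0.28 and -0.30. The difference of ITGA11 lost its call without U2OS CASP8AP2 replicate 1 (0.88, adjusted p = 0.0502) and in a fit restricted to the 8 arrays of this comparison (1.08, adjusted p = 0.0535). Outlying samples were not looked for, since no group held 4 arrays.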

How the results depend on the processing

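The number of genes called in RPE1 cells on day 3 depended on how much the spread was pooled. Of 1358 calls (798 higher, 560 lower), a fit of only the 4 arrays compared gave 384 (312 and 72) and a fit of all 40 arrays 2489 (1282 and 1207). A difference of at least 1 in addition left 191 (172 and 19), and an adjusted p under 0.01 left 545 (409 and 136). Without 1 array the calls ranged from 541 to 1107 (361 to 686 higher and 180 to 429 lower), the lowest without CASP8AP2 replicate 2. Centring, cyclic loess, quantile normalization, the filter on mean levels, a trended robust prior and the replicate block stayed within 1.5 times the count. The difference between the lines gave 2107 calls, 1041 from only the arrays compared, 3742 from all 40 arrays, 434 with a difference of at least 1, 646 at 0.01, and 919 to 2755 without 1 array. Day 1 gave 175 calls, 28 from only the arrays compared and 80 to 146 without 1 array. Day 2 gave 1413 (937 higher, 476 lower), 495 (429 and 66) from only the arrays compared, 974 lower after centring, and 874 to 1327 (626 to 913 higher and 248 to 504 lower) without 1 array. The cause of these shifts beyond the number of arrays was not tested.

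Of 110 called genes followed one by one, 41 were called under each alternative that gave a value and 69 lost the call under at least 1, of which 64 did when only the 4 arrays were fitted (2 residual degrees of freedom), and 0 changed sign. Without 1 array 35 to 51 lost it. In the limma fit of only the 4 arrays, CASP8, SRPX2, ASIC1, DHCR7, PYGB and RARA were not called (adjusted p from 0.0513 to 0.0878). Genes with a mean under 5 have no value under the filter on mean levels. NPAT ranged from -0.042 to 0.12 and HINFP from -0.14 to 0.049 without 1 array, turning sign without control replicate 2, and the difference of JAG1 between lines ranged from -0.037 to 0.18, turning sign without CASP8AP2 replicate 1.

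Samples share only a replicate number: the deviations of control and CASP8AP2 arrays of day 3 correlated with r = 0.205 within RPE1, and those of the other RPE1 pairs lay between -0.125 and 0.0378. With the replicate block, 1304 genes were called in RPE1 on day 3, 2055 between lines, 121 on day 1 and 1226 on day 2.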

Other observations

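Single genes of the cytoskeleton and of protein turnover were called. Of 25 actin and cytoskeleton genes 2 rose and 2 fell in RPE1 cells on day 3. The share called was 16.0% there and 4.08% among proteasome and ubiquitin ligase genes, against 9.56% of all genes with a symbol. PLEC, the linker protein plectin, went from 8.34 and 8.66 to 9.02 and 9.03 (difference 0.53, adjusted p = 0.0111), and MAP1A, a microtubule-associated protein, from 7.18 and 7.30 to 7.82 and 7.90 (difference 0.62, adjusted p = 0.00427). EVL, an actin polymerisation factor, went from 7.26 and 7.47 to 6.85 and 6.97 (difference -0.45, adjusted p = 0.0188), and SRF, a transcription factor of actin genes, differed by -0.32 (adjusted p = 0.0427). MAP1A kept the call without any 1 array, and the others lost it in 3 of the 4 fits (adjusted p up to 0.19). Among 49 proteasome and ubiquitin ligase genes the ligase NEDD4 (0.40) and the conjugating enzyme UBE2G2 (0.35) rose, and both lost the call in 3 fits (adjusted p up to 0.154).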
